A study of Saccharomyces cerevisiae with 12 samples.

Results

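The copy number state of the genome before ageing was compared between wild type and mutants lacking SPT3, RAD52 or SAC3, using genomic DNA of log phase diploid budding yeast. The comparison takes the 4 log phase libraries of a series of 12, 1 per genotype, and divides the deposited read signal of each mutant by that of wild type in the same window. All 2441 windows of the table were used, 2423 nuclear and 18 mitochondrial. Each window is 25 kb long and starts 5 kb after its neighbour. The other 8 libraries, from cells aged for 24 h or 48 h, appear only beside a young value, as a ratio to wild type of the same age.

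Every strain carried the mother enrichment program (MEP), in which estradiol activates a Cre recombinase that stops daughter cells from dividing. The log phase cells were taken before estradiol was added. The library labels give the genotype only, and the strain list holds more than 1 strain for each mutant. The strains without fluorescent tags are taken here, with the trp1Δ63 wild type. Their listed genotype is a MAT a/MAT α diploid with both copies of ade2::hisG, his3, leu2, ura3Δ0 and trp1Δ63. It has 1 mutant and 1 intact copy each of LYS2 and MET15 (lys2/+ and met15Δ::ADE2/+), MET15 being annotated as MET17. The program itself consists of Cre-EBD78 under the SCW11 promoter, which is active in newborn daughters, placed at HO, together with floxed UBC9 and floxed CDC20, present on both homologues. As listed for these strains, the 3 mutants, labelled spt3, rad52 and sac3, add spt3::TRP1, rad52::TRP1 or sac3::TRP1 on both homologues. They thus regain the tryptophan marker that wild type lacks. With 1 library per genotype no test was possible, and the effect of a deletion cannot be told apart from differences between strains or cultures. All 3 mutant ratios share the wild-type library.

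Spt3 is a subunit of SAGA, a histone acetyltransferase complex that activates transcription. Sac3 is the scaffold of TREX-2, a complex at nuclear pores that couples transcription to mRNA export. Rad52 binds single-stranded DNA, anneals complementary strands and is needed for nearly all homologous recombination in yeast. The ribosomal DNA (rDNA) is a tandem array on chromosome XII. Recombination between its units releases extrachromosomal rDNA circles (ERCs), which mother cells retain through SAGA and TREX-2, and the deletions were used for their effect on these circles.

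The edges of the deleted genes are shown because the checks of the 3 deletions below rest on them. The targeting oligonucleotides for all 3 genes end at the first base outside the open reading frame, so the deletions were designed to remove it whole. Each line gives 15 bases outside and 15 bases inside the gene on its coding strand, with the deleted bases in capitals, read from the R64 reference of RefSeq. The outside bases are identical to the inner ends of the homology arms in those oligonucleotides. The edges lie at chrIV:1258681-1258710 and chrIV:1259695-1259724 (SPT3, plus strand), chrXIII:213916-213945 and chrXIII:212500-212529 (RAD52, minus strand), and chrIV:771862-771891 and chrIV:775768-775797 (SAC3, plus strand).
SPT3 start: gagattagggcaggaATGATGGACAAGCAT
SPT3 stop: CCAATTATCATGTAAatttttgtataattt
RAD52 start: tttggtgtgttgttgATGAATGAAATTATG
RAD52 stop: CGCAAGCCTACTTGAaacgcttcctggccg
SAC3 start: gaaggtatcccttaaATGAACACATCATTT
SAC3 stop: GTAAATAATGATTAAagcatttgtaatata

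The median full-length nuclear window held 10817 reads in rad52Δ and 15571 to 21605 in the other libraries. This gives a counting error of 1.05% to 1.25% for a window ratio. Over all nuclear windows the central spread of the ratios (the interquartile range scaled to an SD) was 0.0303 in spt3Δ, 0.0355 in rad52Δ and 0.0348 in sac3Δ, above the counting error in each. Genes fill only part of a 25 kb window, so 5 kb bins were recovered from the differences between neighbouring windows. A bin held a median of 2145 to 4295 reads per library, a counting error of 2.36% to 2.81% for a ratio, and the central spread of the 2308 usable bins was 0.0445 to 0.0514. These errors cover counting only.

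Each mutant was low at its own deleted gene and at neither of the other genes. SAC3 (YDR159W, chromosome IV, 771877 to 775782) fills 3124 bp of 1 bin, which read 2405 in wild type, 2476 in spt3Δ, 2613 in rad52Δ and 936 in sac3Δ. The sac3Δ value stood far below the others at a ratio of 0.389, where complete loss of the gene would leave 0.375 of the bin. The next bin holds the last 782 bp of SAC3 and had a ratio of 0.847, against 0.844 for complete loss. SPT3 (YDR392W, chromosome IV, 1258696 to 1259709) lies in a bin that read 3369 in wild type, 2618 in spt3Δ, 3294 in rad52Δ and 3234 in sac3Δ. Its ratio was 0.777 in spt3Δ, against 0.797 for complete loss. The bin with RAD52 (YML032C, chromosome XIII, 212515 to 213930) read 2005 in wild type, 2084 in spt3Δ, 1541 in rad52Δ and 2181 in sac3Δ. Its ratio was 0.768 in rad52Δ, against 0.717 for complete loss and 0.858 for loss of 1 of 2 copies. The first SAC3 bin and the SPT3 bin were the lowest of all usable bins in their mutants, and the RAD52 bin was the second lowest in rad52Δ.

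The bins of the deleted genes were also low in the aged libraries of the mutants. Since the chromosomal background changes with age, each bin was first divided by the median of 5 bins on either side in its own library, a choice made after the data were seen. In sac3Δ the SAC3 bin then read 0.385 of wild type in log phase, 0.413 after 24 h of ageing and 0.336 after 48 h. SPT3 read 0.800, 0.807 and 0.796 in spt3Δ, and RAD52 read 0.773, 0.777 and 0.729 in rad52Δ. Over bins without a strain allele the central spread of this local ratio was 0.0423 to 0.0435 in log phase and 0.0541 to 0.0742 in the aged libraries. The aged SAC3 values lay below all such bins of their library (lowest 0.766 and 0.448), and the aged RAD52 values below the lowest 1% (0.843 and 0.778). The aged SPT3 values lay above the lowest 1% of bins (0.694 and 0.752) and so within the range of bins without an allele.

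TRP1, the marker used for the deletions, was higher in all 3 mutants. Its bin on chromosome IV read 2118 in wild type, 2728 in spt3Δ, 2411 in rad52Δ and 2520 in sac3Δ, ratios of 1.29, 1.14 and 1.19. If wild type lacked the 675 bp gene and the mutants had 2 copies of it, the ratio would be 1.16. The TRP1 bin was the highest usable bin in spt3Δ, the tenth highest in rad52Δ and the fourth highest in sac3Δ.

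The rad52Δ library stood apart at further alleles that are listed as identical in the 4 strains taken here. LYS2 (YBR115C), which encodes the reductase of lysine synthesis, fills 3926 bp of a bin on chromosome II. That bin read 1824 in wild type, 1731 in spt3Δ, 1808 in sac3Δ and 2936 in rad52Δ. Its ratio of 1.61 was the highest of all bins in rad52Δ, and 2 intact copies against 1 would give 1.65. Relative to its neighbours the bin stood at 0.599 in wild type, 0.576 in spt3Δ, 0.609 in sac3Δ and 0.983 in rad52Δ, where 1 copy in 2 would give 0.607. Such levels also differ between bins with no allele change, as the RAD52 bin stood at 0.752 in wild type.

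MET17 (YLR303W, formerly MET15), which makes homocysteine, lies in the lowest bin of rad52Δ. The bin read 2200 in wild type, 2425 in spt3Δ, 2214 in sac3Δ and 1576 in rad52Δ, a ratio of 0.716. No copy against 1 would give 0.846, and no copy against 2 would give 0.733. Relative to its neighbours the bin stood at 0.752 in wild type, 0.768 in spt3Δ, 0.763 in sac3Δ and 0.553 in rad52Δ. In wild type, spt3Δ and sac3Δ this was nearer to the 0.733 of no copy than to the 0.867 of 1 in 2, and in rad52Δ it was below both. Both bins that hold ADE2, the marker inserted at met15Δ, had a ratio of 1.15 in rad52Δ, and of 0.948 to 1.024 in spt3Δ and sac3Δ. The local ratios in the log phase, 24 h and 48 h libraries of rad52Δ were 1.64, 1.70 and 1.77 for LYS2. They were 0.735, 0.662 and 0.653 for MET17, so the difference from wild type was present in all 3 libraries of that strain. For the bin with 1191 bp of ADE2 the local ratios were 1.09 in log phase, 1.23 after 24 h and 1.097 after 48 h. For the bin with 525 bp they were 1.09, 1.12 and 0.883, so only the former was above 1 in all 3 libraries. In these bins 2 copies against 1 would give 1.14 and 1.06. At LYS2 and MET17 the rad52Δ libraries therefore differed from the other strains, although the alleles are listed as the same in the strains taken here. Another listed rad52Δ strain, tagged at RPA190, has no lys2 allele and no intact copy noted beside met15Δ::ADE2. The library labels do not say which strain was sequenced. The rad52Δ ratios to wild type below rest on this library, while the ratios of spt3Δ and sac3Δ to wild type do not use it.

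**Figure D1:**
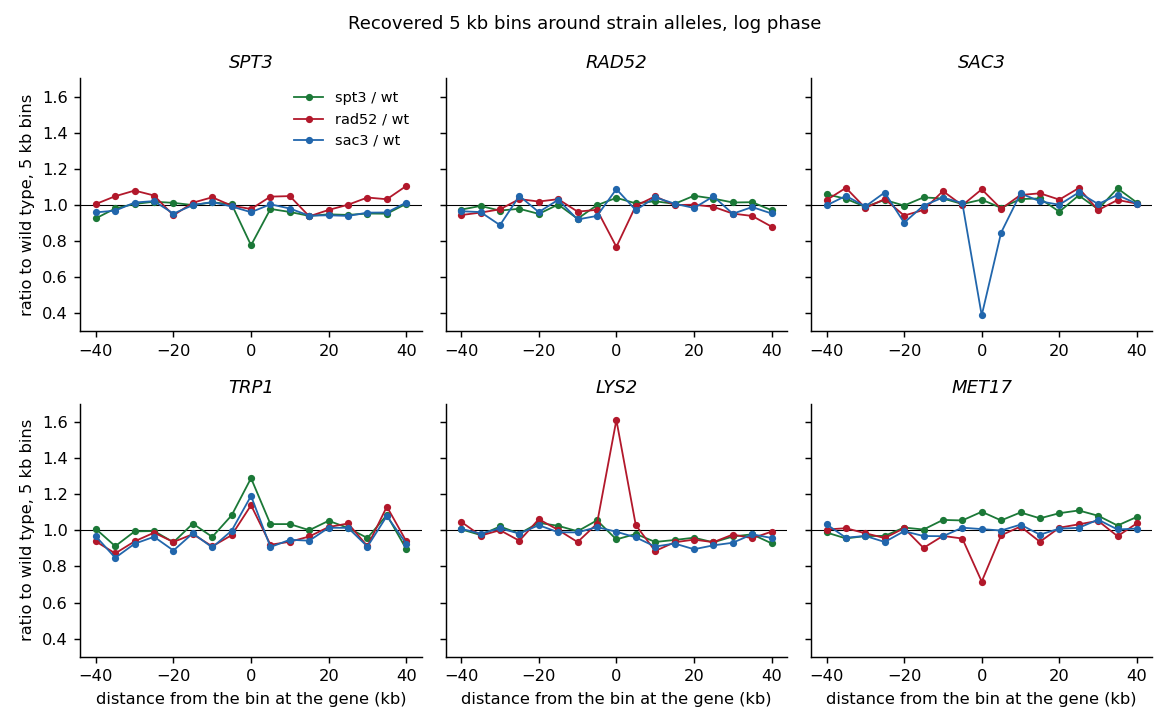
Ratio of each log phase mutant library to wild type in recovered 5 kb bins, by distance in kb from the bin at the named gene. Each deleted gene is low only in its own mutant (0.777 for SPT3, 0.768 for RAD52, 0.389 for SAC3), TRP1 is above 1 in all 3 mutants, and LYS2 (1.61) and MET17 (0.716) depart only in rad52Δ.

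The remaining strain alleles gave values close to wild type. HO, which the Cre cassette replaces, stood at 0.440 to 0.467 of its neighbouring bins in all 4 libraries. Loss of both copies would leave 0.648, and why the level was lower than that was not tested. The ratios at HO, HIS3, LEU2, UBC9 and the main CDC20 bin lay between 0.944 and 1.08 in every mutant. URA3 was lower in sac3Δ at a ratio of 0.868, which was 0.901 after division by its neighbours.

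The young libraries differed in rDNA content, and the mutants did not depart from wild type in the same direction. Divided by the nuclear signal per base, the signal of the 4 bins inside the array corresponded to 183 rDNA units of 9137 bp per haploid genome in wild type, 155 in spt3Δ, 208 in rad52Δ and 122 in sac3Δ. The ratio to wild type was 0.856 in spt3Δ (95% exact binomial interval 0.853 to 0.858), 1.14 in rad52Δ (1.13 to 1.14) and 0.665 in sac3Δ (0.663 to 0.667). The intervals cover counting error only. The 4 bins barely differed from each other, with ratios of 0.852 to 0.864 in spt3Δ, 1.13 to 1.15 in rad52Δ and 0.661 to 0.671 in sac3Δ. Sac3Δ was thus the lowest of the 4 libraries and rad52Δ the highest.

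By the 13 deposited windows that touch the rDNA region, the median ratio was 0.860 in spt3Δ, 1.13 in rad52Δ and 0.687 in sac3Δ. A nuclear window is counted as past the threshold at a ratio of 1.1 or more, or 0.909 or less. In spt3Δ, 11 of the 13 windows were lower by 1.1-fold, against 0.825% of all nuclear windows. In sac3Δ, 12 of 13 were lower, against 0.991%, and in rad52Δ, 8 of 13 were higher, against 0.578%. In the aged wild type the same bins corresponded to 1263 units at 24 h and 2576 at 48 h, which include any circles. They corresponded to 145 to 304 units in the aged mutants. The order of the mutants at log phase, sac3Δ below spt3Δ below rad52Δ, stood at both ages, with 157, 201 and 304 units after 24 h and 145, 207 and 294 after 48 h.

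Mitochondrial DNA was higher than wild type in rad52Δ and lower in spt3Δ and sac3Δ. Yeast mitochondrial DNA encodes subunits of the respiratory chain and ATP synthase, ribosomal RNAs and a ribosomal protein, and its copy number varies with growth state. The mitochondrial signal per base was 1.32 times the nuclear signal in wild type, 0.924 times in spt3Δ, 2.28 times in rad52Δ and 1.06 times in sac3Δ. Over the 18 windows the median ratio was 1.76 in rad52Δ, 0.649 in spt3Δ and 0.776 in sac3Δ. The ratio of the summed bins was 1.72 in rad52Δ (95% exact binomial interval 1.70 to 1.74), 0.705 in spt3Δ (0.697 to 0.713) and 0.801 in sac3Δ (0.793 to 0.809).

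**Figure D2:**
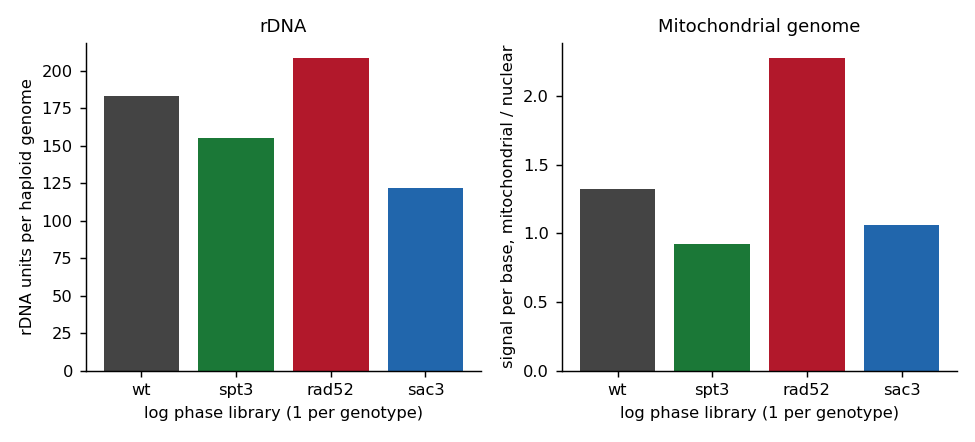
Left, rDNA units per haploid genome, from the 4 bins inside the array. Right, mitochondrial signal per base divided by nuclear signal per base. Each bar is 1 log phase library and both axes start at 0. The rDNA is lowest in sac3Δ (122 units) and highest in rad52Δ (208 units), and the mitochondrial signal is lowest in spt3Δ (0.924) and highest in rad52Δ (2.28).

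The mitochondrial difference was uneven along the genome. In spt3Δ the ratio ran from 0.456 in the bin before COB, the gene for cytochrome b, to 1.26 in the last bin of the map. The bin before COB read 3557 in wild type and 1622 in spt3Δ. The bin that holds part of COX3, the gene for a cytochrome c oxidase subunit, and the sequence after it read 5162 in wild type, 6358 in spt3Δ, 11206 in rad52Δ and 6276 in sac3Δ. It was the only full-length bin of spt3Δ above wild type, with a ratio of 1.23, and it read 3.92 times the bin before COB in spt3Δ, 2.68 times in sac3Δ, 2.05 times in rad52Δ and 1.45 times in wild type. The first bin of the map, which adjoins the last on the circular genome, had a ratio of 0.986 in spt3Δ and 0.895 in sac3Δ.

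Without the first bin and the last 2 bins, the 15 others had a median ratio of 0.619 in spt3Δ, 1.67 in rad52Δ and 0.753 in sac3Δ. In rad52Δ all 18 bins were above wild type, from 1.41 between the 21S rRNA gene and COX2 to 2.61 in COX1, which encodes the catalytic subunit of cytochrome c oxidase. That COX1 bin read 1030 in wild type, 845 in spt3Δ, 2686 in rad52Δ and 1228 in sac3Δ, and its ratio in sac3Δ was 1.19. It had the lowest signal of the full-length bins in wild type, and at 24.4% the highest GC content of the mitochondrial bins. The part of base composition in these shapes was not tested. After ageing for 24 h and 48 h the median window ratio to wild type of the same age was 4.45 and 1.06 in rad52Δ. It was 0.470 and 0.189 in spt3Δ, and 0.545 and 0.153 in sac3Δ. Rad52Δ was thus the highest mutant at all 3 ages. The signal itself rose with age in every strain, wild type included. Per base it was 7.06 and 36.3 times the nuclear signal in wild type at 24 h and 48 h, and 31.0 and 38.3 times in rad52Δ. It was 3.34 and 6.75 times in spt3Δ, and 3.70 and 5.14 times in sac3Δ.

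**Figure D3:**
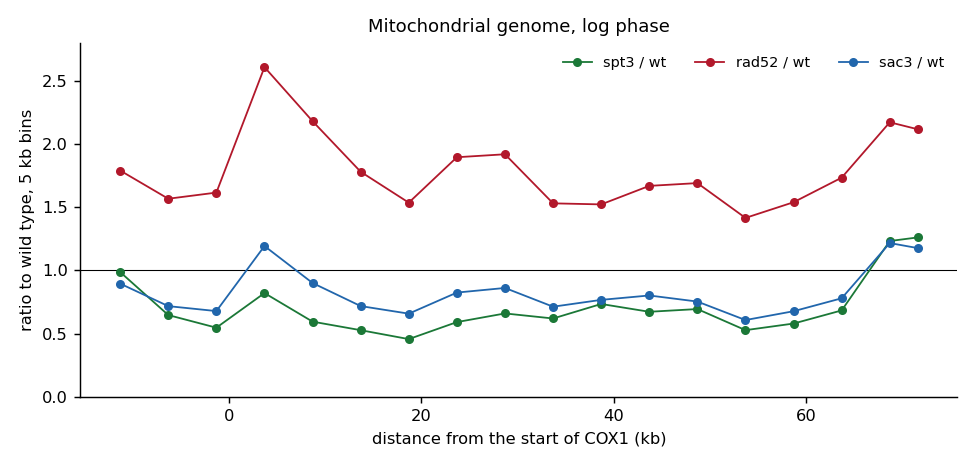
Ratio of each log phase mutant library to wild type in 5 kb bins of the mitochondrial genome, by distance in kb from the start of COX1. All rad52Δ bins lie above 1 (1.41 to 2.61), while spt3Δ and sac3Δ lie mostly below 1 and reach 1.26 and 1.22 at the right end of the map.

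Outside the rDNA, nearly all nuclear windows of the young mutants were within 1.1-fold of wild type. The median ratio over all 2423 nuclear windows was 0.994 in spt3Δ, 0.998 in rad52Δ and 0.990 in sac3Δ, and 98% of the windows lay between 0.920 and 1.07, 0.915 and 1.08, and 0.911 and 1.11. In spt3Δ, 0 windows (0%) were higher by 1.1-fold and 20 (0.825%) were lower. In rad52Δ, 14 (0.578%) were higher and 19 (0.784%) lower, and in sac3Δ, 34 (1.4%) were higher and 24 (0.991%) lower. All windows past the threshold in spt3Δ and rad52Δ touched either the rDNA region or the first or last 25 kb of a chromosome. Sac3Δ had 30 others, of which 21 were higher windows on chromosome XVI and 5 were lower windows around SAC3.

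Chromosome XVI was higher in sac3Δ along nearly its whole length. Its median ratio was 1.07 (interquartile range 1.05 to 1.09, 190 windows), 98.4% of its windows were above 1, and 26 were higher by 1.1-fold. The median of every 50 kb block was above 1, from 1.01 to 1.11, whereas the blocks ranged from 0.959 to 1.07 in spt3Δ and from 0.957 to 1.04 in rad52Δ. Relative to the median of the other chromosomes of that library, chromosome XVI stood at 1.08, which equals a mean of 0.164 extra copies per diploid cell. One copy more in every diploid cell would give 1.5. The chromosome can also be read without wild type. Its median window stood at 0.977 of the median of each library's nuclear windows in wild type, 0.992 in spt3Δ, 0.982 in rad52Δ and 1.06 in sac3Δ. In aged sac3Δ this level was 1.12 (24 h) and 1.16 (48 h), and it was between 0.947 and 1.01 in the aged libraries of the other strains. All 3 sac3Δ libraries were thus above the other 9.

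**Figure D4:**
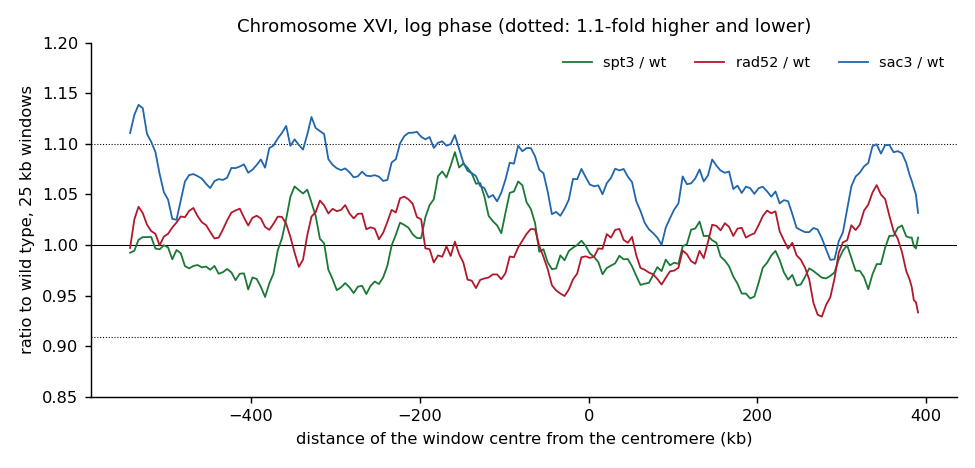
Ratio of each log phase mutant library to wild type in 25 kb windows along chromosome XVI, by distance in kb of the window centre from the centromere. The dotted lines mark 1.1-fold. The sac3Δ line lies above 1 in 98.4% of windows with a median of 1.07, and no window of the other mutants passes 1.1-fold.

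No chromosome had a median beyond 1.1-fold in any mutant. Of 17 units compared, 15 chromosomes and the 2 sides of chromosome XII, 2 had a median more than 2% from 1 in spt3Δ, 5 in rad52Δ and 6 in sac3Δ. In spt3Δ these were chromosome VI (0.975) and the left arm of chromosome XII (1.0205). In rad52Δ they were I (0.979), III (0.970), V (0.975), VI (0.978) and the left arm of XII (0.979), all below 1. In sac3Δ they were I (0.965), III (0.965), V (0.976), VI (0.967) and the left arm of XII (0.976), besides chromosome XVI. ChrXIIr, the stretch from the rDNA to the right telomere of chromosome XII, had a median of 1.019 in spt3Δ, 1.00 in rad52Δ and 0.994 in sac3Δ over 118 windows. After 24 h and 48 h of ageing its median ratio to wild type of the same age was 1.29 and 1.18 in rad52Δ. It was 0.991 and 0.906 in spt3Δ, and 0.926 and 0.856 in sac3Δ. The paper reports that ChrXIIr accumulates with age in wild type too, so these ratios do not give the change within a mutant. The first ChrXIIr window, which borders the rDNA, was at 0.835 in sac3Δ. Its first 5 kb bin read 16854.5 in wild type, against 3980 in the bin after it. That first bin departed from wild type in the same direction as the array, with ratios of 0.858 in spt3Δ, 1.09 in rad52Δ and 0.737 in sac3Δ. The bin after it was at 0.963, 0.983 and 0.911. Whether the low window reflects the copy number of ChrXIIr or signal from the array was not tested.

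**Figure D5:**
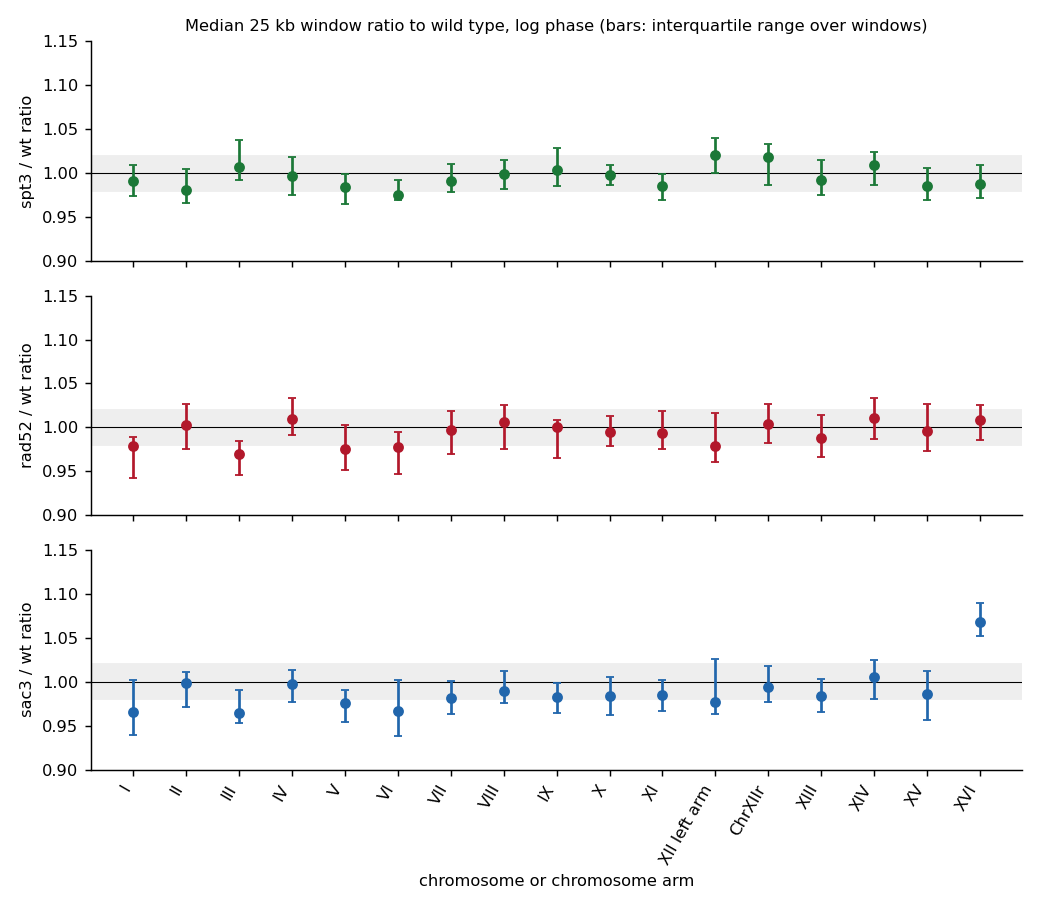
Median ratio to wild type of the 25 kb windows of each chromosome at log phase, with chromosome XII split at the rDNA. Points are medians, bars are interquartile ranges over windows, and the grey band spans 2% either side of 1. Chromosome XVI in sac3Δ (1.07) is the only point whose bar lies wholly above the band.

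Most remaining differences lay at chromosome ends, which carry subtelomeric gene families whose reads map less surely. The right end of chromosome XIV was high in all 3 mutants, with 1.08 in spt3Δ, 1.11 in rad52Δ and 1.13 in sac3Δ in the last 25 kb. The median signal of its windows in the rad52Δ region was 5213 in wild type, 5678 in spt3Δ, 5789 in rad52Δ and 5999 in sac3Δ, so wild type was the low library there. The region runs from YNR068C to YNR077C in rad52Δ (11 genes) and from YNR065C to YNR077C in sac3Δ (14 genes).

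Other ends were lower. In spt3Δ the right end of chromosome XIII, 6 windows from UPA2 to PAU19, had a median ratio of 0.851, with 0.944 in rad52Δ and 0.936 in sac3Δ. The ratio declined towards the telomere, to 0.823 in the last 4431 bp, where sac3Δ was also lower at 0.904. The last window of chromosome III was lower in both spt3Δ (0.894) and sac3Δ (0.879). In rad52Δ the right end of chromosome IX, from DAL1, the allantoinase gene, to YIR042C, was at 0.867, against 1.03 in spt3Δ and 0.967 in sac3Δ. Its last window read 0.804. Rad52Δ was also low at the right end of chromosome II (PHO89 to COS2, 0.881) and at the left end of XIII (YML133C to NGL3, 0.882), where spt3Δ and sac3Δ lay between 0.958 and 1.01. Single windows below 1 kb at the ends of chromosomes I and VI gave 0.818 in spt3Δ, 1.29 in rad52Δ and 1.19 in sac3Δ on 53 to 99 reads each.

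Over all 240 windows touching the last 25 kb of a chromosome, the median was 0.992 in spt3Δ, 0.98 in rad52Δ and 1.0201 in sac3Δ. Within 25 kb of a centromere it was 1.00 in spt3Δ, but 0.962 in both rad52Δ and sac3Δ. Windows with neither a Ty retrotransposon nor a long terminal repeat (LTR) away from the ends and the rDNA had medians of 0.993, 1.00 and 0.993. Windows with a Ty element had 0.996, 0.995 and 0.977, and those with an LTR only had 0.996, 0.986 and 0.977. By GC content the medians of 10 equal groups stayed within 0.989 and 0.996 in spt3Δ and within 0.987 and 0.994 in sac3Δ. In rad52Δ they ranged from 1.01 in the second lowest group to 0.975 in the group richest in GC.

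The other named sac3Δ regions were on chromosomes XVI and IV. The highest of these ran from YRF1-7, a subtelomeric helicase gene, to YPL261C at the left end of XVI (1.12, 21 genes) and the next internal one from CBC2, a cap-binding subunit gene, to AIM44 (1.11, 21 genes). The lowest, from EKI1 to YDR169C-A on chromosome IV, had a ratio of 0.868 and holds SAC3 itself, so a deletion of 3906 bp lowered 5 windows of 25 kb. It also contains RPA14, an RNA polymerase I subunit gene at 0.870, and TAF10, a SAGA subunit gene near its right edge at 1.015.

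Genes of the pathways concerned were nearly all within 1.1-fold of wild type. Each gene was given the median ratio of the windows that hold it whole, and 6002 protein-coding genes were measured, of which 0.6% passed 1.1-fold in either direction in spt3Δ, 0.766% in rad52Δ and 2.08% in sac3Δ. Of 19 SAGA genes, 0 passed in any mutant. Their medians were 1.01, 1.00 and 0.992 in spt3Δ, rad52Δ and sac3Δ, and SPT3 was lowest in spt3Δ at 0.946. Of 5 TREX-2 genes, SAC3 alone passed, at 0.867 in sac3Δ. Of 23 homologous recombination genes, 0 passed, with RAD52 at 0.959 in its own mutant, where the deletion is diluted by its neighbours.

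Of 28 genes for rDNA copy number and silencing, RPA14 beside SAC3 alone passed, at 0.870 in sac3Δ. FOB1, whose product blocks replication forks in the rDNA, reached 1.05 in rad52Δ, the highest of the list there. Of 20 genes for mitochondrial DNA maintenance, 0 passed in any mutant, and the medians were 0.999, 0.994 and 0.975. The medians of all genes were 0.994, 0.999 and 0.990. By this measure the deleted SPT3 read 0.946 in spt3Δ and the deleted RAD52 0.959 in rad52Δ. Loss of a gene that short would therefore not have passed the threshold in these lists.

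The CUP1 and ENA tandem arrays had ratios near 1. The bin with the CUP1 genes, which encode copper metallothionein, read 9467 in wild type, 9406 in spt3Δ, 9858 in rad52Δ and 9085 in sac3Δ. This was 3.82 to 4.18 times the flanking bins, and the ratios were 0.994, 1.04 and 0.960, all within the central spread of 5 kb bins. Over the ENA genes, which encode sodium pumps, the ratios were 0.990, 1.00 and 0.999. The ASP3 asparaginase genes, from 469317 to 487289 on chromosome XII, share 25 kb windows with the rDNA, and the windows holding ASP3-1 whole had a median of 0.856 in spt3Δ, 1.13 in rad52Δ and 0.669 in sac3Δ. The 4 bins that follow the rDNA bins, up to 490000, had ratios of 0.871 to 0.992 in spt3Δ, 0.850 to 1.00 in rad52Δ and 0.845 to 1.01 in sac3Δ. In rad52Δ they were thus not raised with the array.

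The single bins farthest from wild type away from chromosome ends were few beyond the strain alleles. Without the allele bins, the 2291 usable bins, chromosome ends included, ranged from 0.817 to 1.17 in spt3Δ, from 0.846 to 1.19 in rad52Δ and from 0.807 to 1.24 in sac3Δ. In sac3Δ the lowest bins after SAC3 were a pair on chromosome VII that hold a Ty3 retrotransposon, YGRWTy3-1. They read 2163 and 2145 in wild type and 1745 and 1778 in sac3Δ, ratios of 0.807 and 0.829, while spt3Δ and rad52Δ lay between 0.945 and 1.021. In sac3Δ aged for 24 h the pair read 0.876 and 0.908, and after 48 h it read 0.877 and 0.860. The other annotated Ty3, YILWTy3-1 on chromosome IX, fills 4781 bp of a bin with a ratio of 0.892 in sac3Δ, 0.947 in spt3Δ and 0.978 in rad52Δ.

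Other named bins were less far from 1. The lowest in spt3Δ after SPT3 held RPL33A, a ribosomal protein gene on chromosome XVI (0.846), and DFR1, the dihydrofolate reductase gene on XV (0.851), and the third lowest in rad52Δ held DNL4, the ligase of end joining (0.846). In the aged libraries of the same strains these bins were at 1.03 to 1.14. The highest after TRP1 in spt3Δ held HST3 and BUB3 (1.17) and MRN1 (1.16), and those after LYS2 in rad52Δ held UBP14 (1.19) and PET54 (1.16). In sac3Δ the highest bins were on chromosome XVI, with MRN1 (1.21) and ISU1 (1.18), beside TRP1. MRN1 was at 1.11 in rad52Δ, so wild type was the lowest library at that bin.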

How the data were processed

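Genomic DNA of wild type and the spt3, rad52 and sac3 mutants was extracted in agarose plugs, sonicated, and sequenced as 75 base single-end reads. According to the methods the authors trimmed reads and aligned them with Bowtie 2 to R64-1-1, whereas the submitters' processing notes name Trim Galore 0.6.6, HISAT2 2.1.0 and build R64. The deposited signal is the read count per 25 kb window multiplied by a size factor. The methods describe the removal of repeat and mitochondrial windows, which the table still holds. Here ratios of mutant to wild-type signal were taken per window in Python 3.11.15 (numpy 2.4.6, pandas 2.3.3, scipy 1.17.1). Windows are cut short at chromosome ends, so 5 kb bins were solved backwards from there and checked on simulated reads. Bins of chromosome XII left of position 495001 were used only inside the rDNA array, over ASP3 and for the bin from 490001. The value of 1 read was taken as the common step of each library's values, of which at least 99.7% were whole multiples within 0.1, and served only for counting errors and intervals. Named regions were the strain alleles, the rDNA, the mitochondrial bins, both sides of chromosome XII, the tandem arrays, chromosomes with a median more than 2% from 1, and per mutant the 3 highest and 3 lowest merged regions (at least 3 overlapping windows past 1.1-fold) and 5 kb bins. Members and gene lists were chosen with earlier results of these data known.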

Additional observations from a re-analysis of the deposited data

How the results depend on the processing

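With 1 library per genotype, no replicate could be left out and the spread between cultures is unknown, so every statement covers these 4 libraries only. No paired analysis was possible because there was 1 library per genotype and time point and no test was run. With the other mutants as reference, which for spt3Δ and sac3Δ includes the rad52Δ library, or relative to flanking bins, the SPT3 bin stayed between 0.777 and 0.802, RAD52 between 0.723 and 0.773 and the main SAC3 bin between 0.368 and 0.389. Of 459 chromosome medians recomputed, 302 stayed within counting error, 157 moved by at most 4.18%, and 38 lay on the other side of 1. Of 36 values of merged regions 31 stayed, and the right end of chromosome XIV in rad52Δ turned to 0.995 with the other 2 mutants as reference.

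The rDNA ratio in spt3Δ was 0.854 after re-centring, 0.866 with median-of-ratios factors, 0.984 with the other mutants as reference, 0.882 as a mean, 0.856 in windows wholly inside the region and 0.856 in the 4 bins. In rad52Δ it was 1.46 with the other mutants as reference, 1.08 as a mean and 1.14 in the bins. In sac3Δ it was 0.691 with median-of-ratios factors, 0.696 with the other mutants as reference, 0.742 as a mean, 0.675 from summed signals, 0.669 in whole windows and 0.665 in the bins. The mitochondrial ratio in spt3Δ was 0.602 with the other mutants as reference, 0.740 as a mean, 0.694 from summed signals and 0.625 in full-length windows. In rad52Δ it was 2.31, 1.72 from sums and 1.69 in full-length windows, and in sac3Δ 0.731, 0.839 as a mean and 0.801 from sums. Both quantities stayed on the same side of 1 under all these settings, though the rDNA ratio of spt3Δ came close to 1 with the other mutants as reference. That setting leaves out wild type, so it does not check the difference from wild type.

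With the other mutants as reference, 1.24% of windows were higher by 1.1-fold in spt3Δ, 1.2% were lower in rad52Δ and 0.413% were higher in sac3Δ. Removing the GC trend gave 0.0413% higher in spt3Δ. Full-length windows alone gave 0.341% higher and 0.213% lower in rad52Δ. Without windows touching the rDNA or chromosome ends, a setting added after the data were seen, 0% were lower in spt3Δ, 0% higher and 0% lower in rad52Δ, and 0.415% lower in sac3Δ. The number of chromosomes with a median more than 2% from 1 in spt3Δ was 5 after re-centring, 4 with the other reference, 1 without the GC trend, 4 without repeat windows, 1 with non-overlapping windows, 0 as means and 1 from sums. In rad52Δ it was 0 with the other reference and 1 without repeat windows, and in sac3Δ 2 and 3. Chromosome XVI in sac3Δ stayed at 1.07 in all 9 settings. The causes of these changes were not tested.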
